A study of Mus musculus with 3 samples.

Results

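The genes described here are 10 regulators of the G1 phase of the cell cycle, chosen by name from a table of read counts for 24421 mouse genes. They are the D-type cyclin genes Ccnd1, Ccnd2 and Ccnd3, the kinase genes Cdk4 and Cdk6, the CIP/KIP inhibitor genes Cdkn1a and Cdkn1b, and the INK4 inhibitor genes Cdkn2a, Cdkn2b and Cdkn2c. All 10 were found in the table, and 8 of them reached 1 CPM, the read count scaled to library size, in some library. Cdkn2a and Cdkn2b did not. RNA came from JB6 P+, a mouse epidermal cell line that phorbol esters can transform, and 3 cultures gave 1 library each. The control was labelled only as such. The TPA library came from cells kept in 1% serum and given 10 ng/mL of the phorbol ester TPA every second day for 5 days. The CDDO+TPA library came from cells given the same TPA with 50 nM of the synthetic triterpenoid CDDO. Its column in the table names CDDO alone and was matched to the only sample whose labels name CDDO. The serum, vehicle and time in culture of the control are not given in the sources used here, so differences from control cannot be told apart from these conditions.

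D-type cyclins bind CDK4 or CDK6 in G1, and the active complexes phosphorylate the retinoblastoma protein, which releases E2F factors and allows entry into S phase. INK4 proteins bind the kinases and keep the cyclins off them. CIP/KIP proteins restrain CDK2 with its E- and A-type cyclins, and they also help D-type cyclins assemble with their kinases. Ccnd1 is known as a gene that responds to mitogens, and the Cdkn2a locus is one that cultured mouse cells often lose or silence.

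The libraries held 7813035 to 8190078 reads assigned to genes. With 1 library per group no test against the spread between cultures was possible, and every interval below is a 95% interval for counting error only. Reads are not independent molecules, so the true error is larger. Of 14 epithelial and keratinocyte markers, 5 reached 1 CPM. Krt5, Krt1, Krt15, Krt18 and Epcam had 0 reads in each library, although the cells are labelled as skin epithelium. The 14 summed to 19.1, 36.2 and 15.1 CPM in control, TPA and CDDO+TPA. Itgb4 held most of the TPA sum, with 2.87, 23.2 and 3.29 CPM in the same order. Krt10 had 13.0, 9.16 and 6.59 CPM. The 12 mesenchymal markers summed to between 2158 and 3255 CPM, lowest in the TPA library. Fn1 held the largest part, with 1519, 1087 and 1391 CPM in control, TPA and CDDO+TPA. Of the 10 measured, 6 were lower in TPA than in control and 4 higher, Vim among the higher. The 8 leukocyte markers summed to between 52.0 and 85.8 CPM, with Ptprc at 0 in each library. Of these markers 3 reached 1 CPM, and they differed in opposite directions. Cd68 had 22.1, 52.2 and 71.2 CPM in control, TPA and CDDO+TPA. Cd74 had 23.6, 6.78 and 5.45 CPM, and Lyz2 had 6.12, 2.01 and 8.36. The 5 endothelial markers summed to 50.7, 292 and 199 CPM in control, TPA and CDDO+TPA, nearly all of it Vwf. The part of other cell types in the results below was not tested.

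Promoter sequences of RefSeq (GRCm38.p6) were matched for 8 of the 10 genes, all but Ccnd1 and Ccnd2. Those of 3 genes are shown, for the D-type cyclin with the largest TPA difference, the most abundant kinase and the CIP/KIP inhibitor that differed most. Each is the plus strand, 5′ to 3′, before an annotated start. Ccnd3 has another matched start, whose stretch is not shown. For Ccnd3 (chr17:47504801-47505050) capitals mark GC boxes, GGGCGG or its complement, and the CRE core TGACG. For Cdk4 (chr10:127063285-127063533) they mark E boxes, CACGTG. For Cdkn1b (chr6:134920151-134920400) they mark the GC box.
Ccnd3: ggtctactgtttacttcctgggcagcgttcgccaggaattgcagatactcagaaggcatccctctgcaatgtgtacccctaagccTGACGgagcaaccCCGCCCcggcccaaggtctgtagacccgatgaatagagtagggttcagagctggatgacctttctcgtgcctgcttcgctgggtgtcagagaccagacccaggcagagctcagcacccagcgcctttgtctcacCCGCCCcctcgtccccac
Cdk4: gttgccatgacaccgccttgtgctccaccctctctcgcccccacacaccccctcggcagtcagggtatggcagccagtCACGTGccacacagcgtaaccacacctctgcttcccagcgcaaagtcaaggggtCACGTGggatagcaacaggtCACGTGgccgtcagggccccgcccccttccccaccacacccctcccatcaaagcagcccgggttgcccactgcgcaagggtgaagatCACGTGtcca
Cdkn1b: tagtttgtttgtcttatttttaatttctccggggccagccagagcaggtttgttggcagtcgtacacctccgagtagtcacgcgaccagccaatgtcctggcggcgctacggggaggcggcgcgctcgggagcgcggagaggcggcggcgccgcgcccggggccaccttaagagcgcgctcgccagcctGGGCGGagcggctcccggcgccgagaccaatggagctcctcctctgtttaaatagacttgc

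The Cdk4 stretch held 4 E boxes, and 7 of 32851 promoter windows of the same genome, or 0.0213%, held 4 or more. The cut of 4 was set by the Cdk4 count after it was seen, so this share is not a probability. At least 1 E box was found in 6.02% of windows, a GC box in 32.7% and the CRE core in 17.8%. These searches covered both strands of the 250 bases before each start. Over the 12 windows of the 8 genes, the AP-1 letters TGANTCA were found in 0, against 6.75% of all windows, and the E2F letters TTTNNCGC in 3, those of Cdk6 and Cdkn2a, against 4.28%. In the Ccnd3 stretch shown, the CRE core is part of a match to TGACNNNGC, the antioxidant response letters, which 10.2% of windows held. The other Ccnd3 window (chr17:47593217-47593466) held a GC box and a CRE core but no match to the antioxidant response letters. Those letters were found in 3 of the 12 windows, of Ccnd3, Cdk4 and Cdkn2a, with 2 matches in the Cdk4 stretch shown. A match describes letters and is not a binding site.

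The question of the comparison of TPA with control is how the G1 genes stood in cells given the tumour promoter. Ccnd1 and Ccnd3 were higher in the TPA library and Ccnd2 lower, while Cdk4 differed from control by less than counting error. Cdk6 was higher from a low level, and Cdkn2c was lower. Cdkn1a and Cdkn1b lay close to control, and whether their intervals excluded 1 depended on how the libraries were scaled. None of the 8 genes was past the size rule, which asks for a log2 difference in CPM of 1 or more in either direction and a counting interval without 1. Of the 13100 genes that reached 1 CPM, 15.5% were past it, 9.57% higher and 5.91% lower. Each of the 8 averaged more than 10 CPM, and of the 9890 genes averaging at least 10 CPM, 857 were past it. The counting interval of the ratio excluded 1 for 6 of the 8, 3 in each direction, beside 62.9% of all genes. With total reads or upper-quartile factors in place of TMM factors it was 4 higher and 2 lower, since Cdkn1a was then counted as higher and Cdkn1b no longer as lower. The share over all genes includes genes with few reads, whose intervals are wide. At 1.5-fold in place of 2-fold, Ccnd1, Ccnd3 and Cdk6 were past the size rule, beside 29.3% of all genes. The median log2 difference of the 8 was 0.00, as it was over all genes.

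Setting CDDO+TPA against TPA asks how the G1 genes differed when CDDO was present as well. Cdkn2c was higher in the CDDO+TPA library, Cdkn1b, Cdkn1a and Ccnd3 were lower, Cdk4 was slightly lower, and Ccnd1 and Ccnd2 were slightly higher. Past the size rule was Cdkn2c alone, 1 of 8, at 2-fold and at 1.5-fold. All genes past it came to 15.6% at 2-fold, 7.87% higher and 7.78% lower, and to 28.1% at 1.5-fold. Of the 9890 genes averaging at least 10 CPM, 749 were past it at 2-fold. The interval excluded 1 for 7 of the 8, beside 63% of all genes. The median log2 difference was -0.16, against 0.01 over all genes. Against control, none of the 8 was past the rule in the CDDO+TPA library, beside 11.4% of all genes, 8.02% higher and 3.37% lower. Among the 9890 genes averaging at least 10 CPM, 672 were past it in that comparison. At 1.5-fold, Ccnd1 and Cdkn2c were higher and Cdkn1b lower, beside 22.1% of all genes. The interval excluded 1 for each of the 8, 4 in each direction, beside 55.8%. The shares of 63% and 55.8% include genes with few reads, whose intervals are wide, and no share was formed for genes of like depth. The comparisons share libraries, so they are not independent of each other. In RNA from whole cultures, fewer cells expressing a gene and less RNA per cell cannot be told apart.

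**Figure D1:**
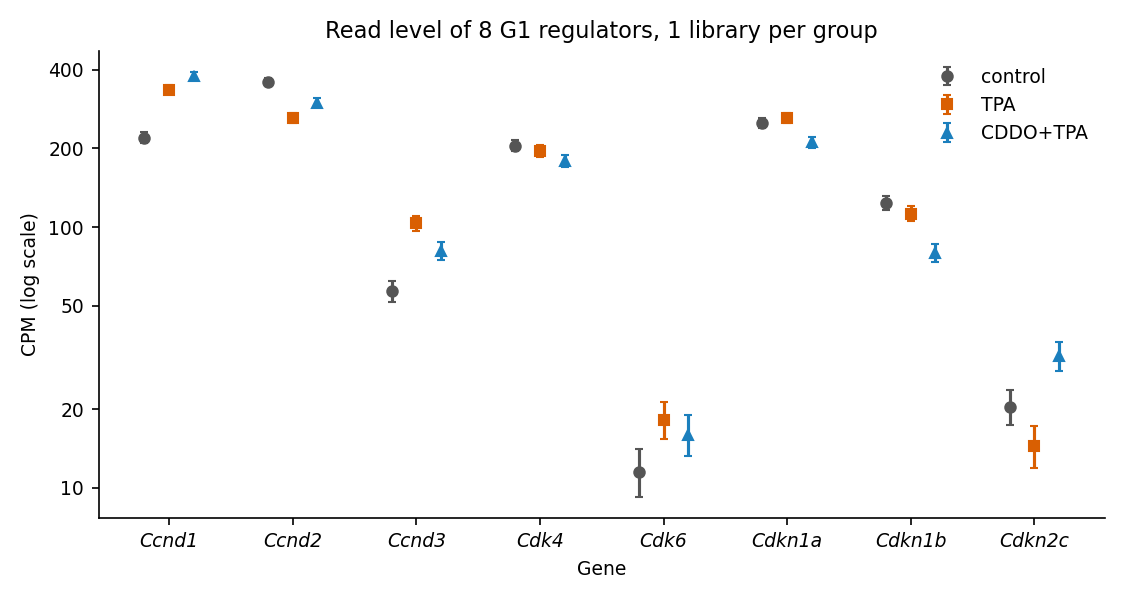
Read level in CPM (log axis) of the 8 G1 genes that reached 1 CPM, with circles for control, squares for TPA and triangles for CDDO+TPA, 1 library each; bars are 95% Poisson counting intervals. Ccnd1 is lowest in control and highest in CDDO+TPA, Cdkn1b is lowest in CDDO+TPA, and Cdkn2c is lowest in TPA and highest in CDDO+TPA.

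Among the D-type cyclins, Ccnd1 (chr7:144929931-144939925, minus strand, mm10), which encodes cyclin D1, had 1762 reads in control, 2675 in TPA and 2992 in CDDO+TPA. Scaled to the libraries this was 219.9, 336 and 379 CPM, and the 3 counting intervals did not overlap. The ratio of TPA to control was 1.53 (1.44 to 1.62), that of CDDO+TPA to TPA was 1.13 (1.07 to 1.19), and that of CDDO+TPA to control was 1.72 (1.62 to 1.83). Among all genes tested, 32.4% differed at least as much between TPA and control as Ccnd1 did. In the GENCODE M21 annotation 29.0% of the counted Ccnd1 bases are also exons of LTO1, named Oraov1 in the table, on the other strand. If reads were counted without regard to strand, the reads of both genes there could not be separated. Oraov1 itself had 41.1, 34.9 and 37.6 CPM in control, TPA and CDDO+TPA. In the gene models used for counting it does not overlap Ccnd1, so these values do not measure the shared bases. The part of Oraov1 reads in the Ccnd1 counts was not tested.

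Ccnd2 (chr6:127125709-127151048, minus strand), for cyclin D2, had 2883, 2092 and 2361 reads in control, TPA and CDDO+TPA, or 359.8, 263 and 299 CPM. It was highest in control and lowest in TPA, with no overlap between the 3 intervals. The TPA library was 1.37-fold lower than control (1.29 to 1.45), and CDDO+TPA was 1.14-fold higher than TPA (1.07 to 1.21) and 1.20-fold lower than control (1.14 to 1.27).

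Ccnd3 (chr17:47505051-47599688, plus strand), for cyclin D3, had 455, 823 and 641 reads, or 56.8, 103 and 81.2 CPM. The CDDO+TPA library lay between the others, and the intervals did not overlap. TPA was 1.82-fold higher than control (1.62 to 2.04), a size that 20.99% of all genes reached, and CDDO+TPA was 1.27-fold lower than TPA (1.15 to 1.41). Exons of Bysl, on the other strand, cover 15.8% of the counted Ccnd3 bases. Bysl had 123, 104.7 and 96.4 CPM in control, TPA and CDDO+TPA. The gene models used for counting hold this overlap. Whether reads there were counted for Ccnd3, for Bysl, for both or for neither was not tested.

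Within a library the make-up of D-type cyclin RNA does not depend on how libraries are scaled to each other. Per kilobase of exon, Ccnd2 was the leading D-type cyclin in control, at 42.9% of the 3, with Ccnd1 at 39.8% and Ccnd3 at 17.3%. In TPA Ccnd1 led with 49.2%, and Ccnd2 and Ccnd3 stood at 25.3% and 25.4%. In CDDO+TPA the shares were 53.2%, 27.6% and 19.2% for Ccnd1, Ccnd2 and Ccnd3. Ccnd1 stood to Ccnd2 at 0.929 per length (0.875 to 0.986) in control, 1.94 (1.84 to 2.06) in TPA and 1.93 (1.82 to 2.03) in CDDO+TPA. The order of Ccnd1 and Ccnd2 was therefore opposite in control and in both treated libraries, and the treated libraries did not differ beyond counting error. Ccnd2 and Ccnd3 did not differ in TPA, at a ratio of 0.995 (0.918 to 1.08). Summed over the 3 genes, RPKM (CPM per kilobase of exon) was 145, 180 and 188 in control, TPA and CDDO+TPA, so the sum was 1.24 times control in TPA and 1.29 times in CDDO+TPA.

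**Figure D2:**
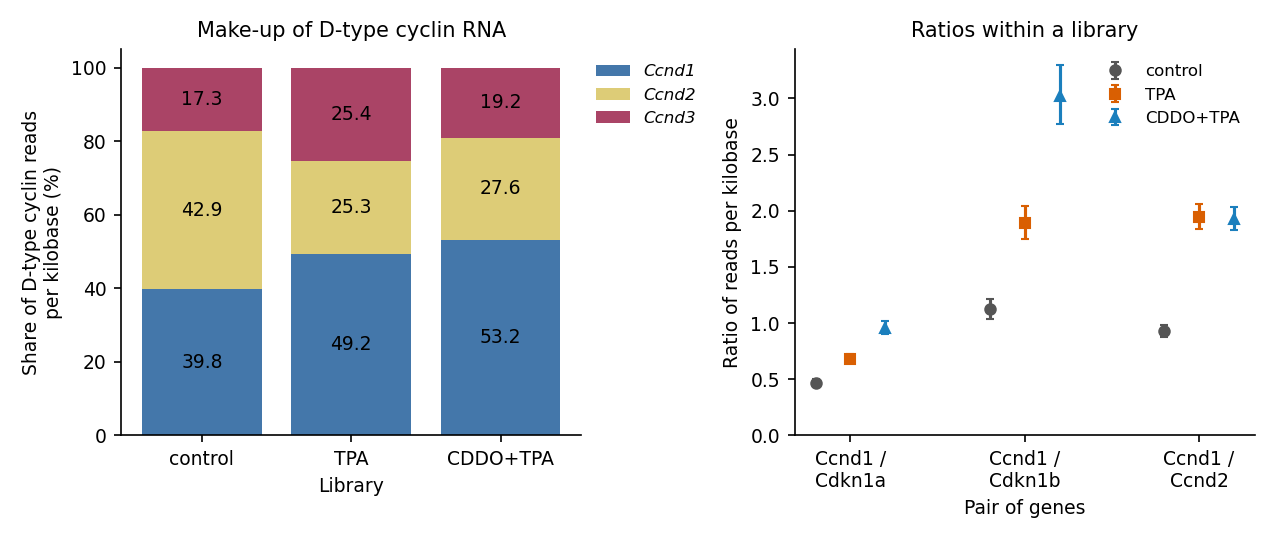
Left, share in % of D-type cyclin reads per kilobase held by Ccnd1, Ccnd2 and Ccnd3 in each library; right, ratio of Ccnd1 to Cdkn1a, Cdkn1b and Ccnd2 in reads per kilobase, with 95% counting intervals, 1 library per group. Ccnd2 has 42.9% in control and 25.3% in TPA, and Ccnd1 per Cdkn1b goes from 1.12 in control to 3.02 in CDDO+TPA.

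Of the kinases, Cdk4 (chr10:127063603-127067282, plus strand) was the most abundant of the 10 genes per length in each library. It had 1640, 1559 and 1416 reads, or 205, 196 and 179 CPM, in control, TPA and CDDO+TPA. The control and TPA intervals overlapped, with a ratio of 0.956 (0.892 to 1.03), and CDDO+TPA was 1.09-fold lower than TPA (1.01 to 1.17) and 1.14-fold lower than control (1.06 to 1.23). Its level per length was above that of at least 99.1% of the genes tested in each library. It held 1.22, 1.16 and 1.05 reads per exonic base, so that if duplicates were removed by position, as the column names may mean, its counts could be capped. Cdkn1a was close to it, with 0.992, 1.03 and 0.825 reads per base in control, TPA and CDDO+TPA, and Ccnd1 had 0.464, 0.705 and 0.788. The effect of a cap on the ratios of these 3 genes was not tested.

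Cdk6 (chr5:3344312-3522225, plus strand), which encodes the other D-cyclin partner, had 92, 145 and 126 reads, or 11.5, 18.2 and 16.0 CPM. TPA was 1.59-fold higher than control (1.21 to 2.08), and the intervals of TPA and CDDO+TPA overlapped, with a ratio of 0.877 (0.685 to 1.12). Cdk4 exceeded Cdk6 per length 32.7-fold in control (26.5 to 40.8), 19.7-fold in TPA (16.6 to 23.6) and 20.6-fold in CDDO+TPA (17.2 to 24.9). Cdk4 thus made up 97.0%, 95.2% and 95.4% of the pair.

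**Figure D3:**
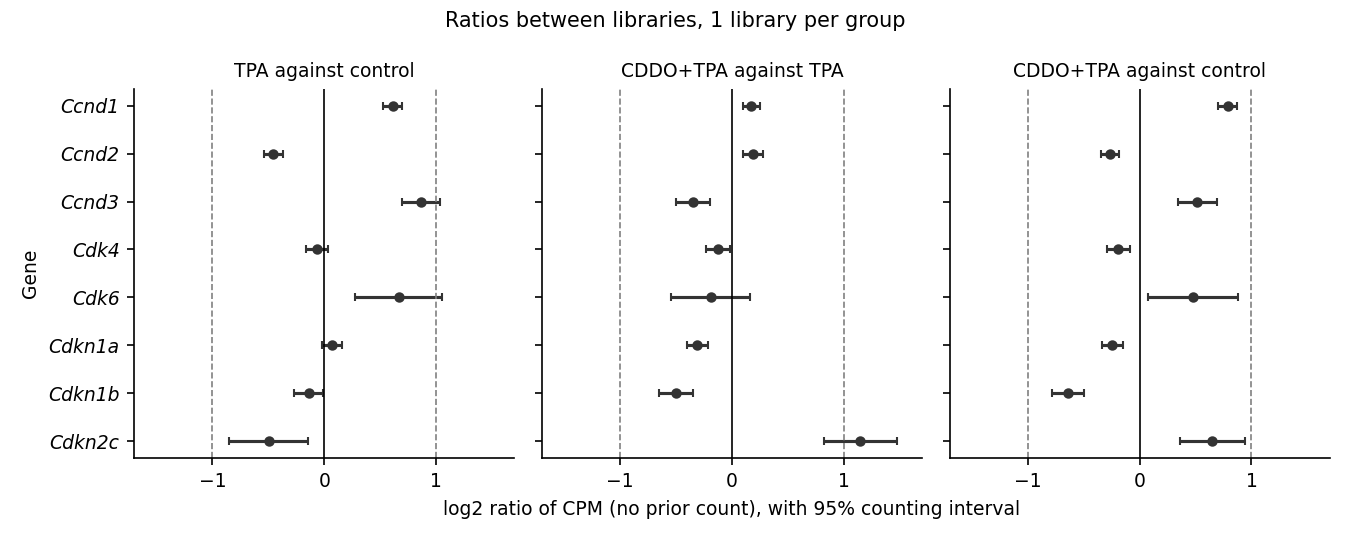
Log2 ratio of CPM without a prior count for the 8 genes in the 3 comparisons, 1 library per group, with 95% counting intervals as bars; dashed lines mark a log2 ratio of 1 in each direction. Cdkn2c in CDDO+TPA against TPA is the point beyond a dashed line, and Ccnd3 in TPA against control, at 1.82-fold, is the nearest inside.

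Cdkn1a (chr17:29090986-29100722, plus strand) encodes p21, a CIP/KIP inhibitor and p53 target. It had 2010, 2092 and 1671 reads, or 251, 263 and 212 CPM, in control, TPA and CDDO+TPA. The ratio of TPA to control was 1.05 (0.984 to 1.11), an interval that held 1, but with libraries scaled by total reads it was 1.09 (1.03 to 1.16) and with upper-quartile factors 1.09 (1.03 to 1.16). The CDDO+TPA library was below both, 1.24-fold lower than TPA (1.16 to 1.32) and 1.18-fold lower than control (1.11 to 1.26).

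Cdkn1b (chr6:134920401-134925525, plus strand) encodes p27, the inhibitor associated with quiescence. It had 994, 897 and 628 reads, or 124, 113 and 79.6 CPM. The intervals of control and TPA overlapped, although the interval of their ratio, 0.908 (0.829 to 0.995), excluded 1. Scaled by total reads that ratio was 0.946 (0.863 to 1.04) and by upper-quartile factors 0.948 (0.865 to 1.04), and both intervals held 1. CDDO+TPA was the lowest, 1.42-fold below TPA (1.28 to 1.57) and 1.56-fold below control (1.41 to 1.73), and 24.5% of all genes differed at least as much from control. Per length, the ratio of Ccnd1 to Cdkn1b was 1.12 in control (1.04 to 1.22), 1.89 in TPA (1.75 to 2.04) and 3.02 in CDDO+TPA (2.77 to 3.29). The ratio of Ccnd1 to Cdkn1a was 0.468 (0.439 to 0.499), 0.682 (0.644 to 0.723) and 0.956 (0.8998 to 1.02). Both ratios were lowest in control and highest in CDDO+TPA, with no overlap of intervals. Ratios of Ccnd2 or Ccnd3 to an inhibitor gene, and of Ccnd1 to Cdkn2c, were not formed. A difference of cyclins against inhibitors in general is therefore not shown. Summed, the RPKM of Cdkn1a and Cdkn1b was 175, 176 and 138 in control, TPA and CDDO+TPA.

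Among the INK4 genes, Cdkn2c (chr4:109660876-109666756, minus strand), which encodes p18, had 163, 115 and 252 reads in control, TPA and CDDO+TPA. This was 20.3, 14.4 and 31.9 CPM. It was lowest in TPA, 1.41-fold below control (1.10 to 1.80), and the intervals of these levels met at 17.3 CPM. It was highest in CDDO+TPA, 2.21-fold above TPA (1.77 to 2.78) and 1.57-fold above control (1.28 to 1.92). Its log2 difference between CDDO+TPA and TPA was 1.13, a size that 14.5% of all genes reached.

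By distance over 2 log2 differences, those of TPA from control and of CDDO+TPA from TPA, the genes most like Cdkn2c were Fads2, Haus1 and Tpx2, among 9890 genes with a mean of at least 10 CPM. Fads2, a fatty acid desaturase gene, had 44.8, 31.6 and 68.7 CPM. Haus1, for a subunit of the spindle's augmin complex, had 11.7, 8.79 and 19.6 CPM, and Tpx2, for a spindle assembly factor, had 125, 91.0 and 189 CPM. Likeness over 3 libraries is a description of these libraries.

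Cdkn2d, the INK4 gene for p19, is outside the 10 genes and had 92, 138 and 152 reads, or 11.5, 17.3 and 19.3 CPM, in control, TPA and CDDO+TPA. It was lowest in control, and the ratio of CDDO+TPA to control was 1.68 (1.29 to 2.20). Cdkn2a and Cdkn2b, the other INK4 genes among the 10, were at or below the floor of 3 counts, which lies between 0.374 and 0.380 CPM. Cdkn2a (chr4:89274473-89294619, minus strand), which encodes both p16 and the ARF protein, had 1, 0 and 1 reads in control, TPA and CDDO+TPA. Cdkn2b (chr4:89306289-89311032, minus strand), for p15, had 0 reads in each. No ratio was formed for either gene, and the counts do not tell a silent locus from a lost one.

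Genes on the same chromosome were read from a list of 4. Mtap, a methionine salvage gene that ends 130 kb from the Cdkn2b start, had 1093, 1250 and 1471 reads. Klhl9, a ubiquitin ligase adaptor gene 589 kb away on the same side, had 890, 942 and 784. Dmrta1, on the other side of Cdkn2b, had 0 reads in each library. Elavl2, an RNA-binding protein gene farther along that side, had 32.4, 6.28 and 10.8 CPM in control, TPA and CDDO+TPA.

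**Figure D4:**
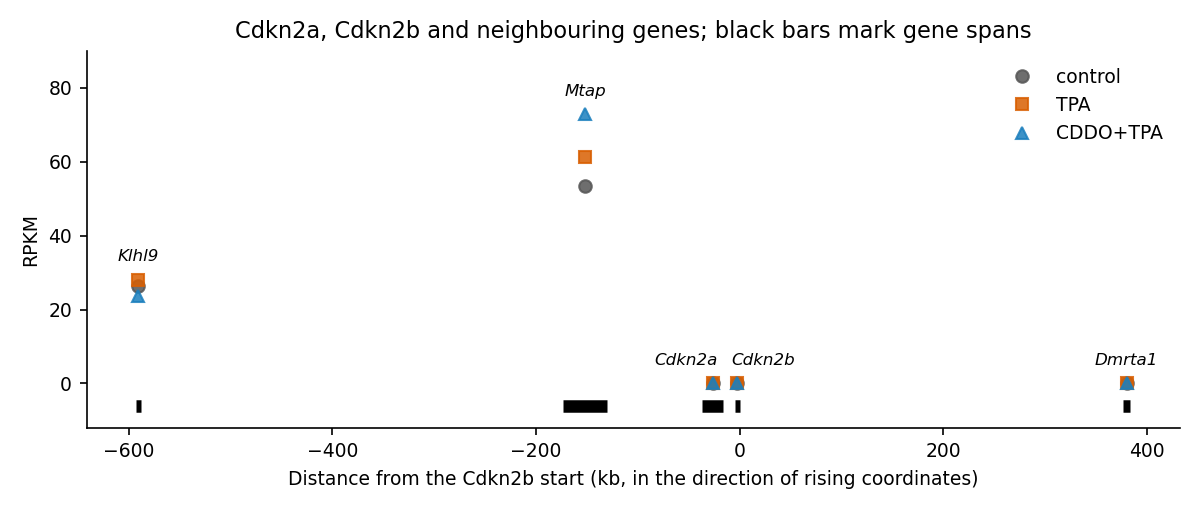
RPKM of Cdkn2a, Cdkn2b and 3 genes around them in control, TPA and CDDO+TPA, 1 library each, against distance in kb from the Cdkn2b start; black bars are gene spans, and other genes of the stretch are not drawn. Mtap lies between 53.3 and 72.9 RPKM, while Cdkn2a, Cdkn2b and Dmrta1 are at or near 0.

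Ordered by level per length, the 8 genes stood in control as Cdk4 (152 RPKM), Cdkn1a (124), Ccnd2 (62.3), Ccnd1 (57.9), Cdkn1b (51.6), Ccnd3 (25.1), Cdkn2c (9.03) and Cdk6 (4.65), and each neighbouring pair differed beyond counting error. In TPA, Ccnd1 stood next after Cdkn1a with 88.5 RPKM. Below it Cdkn1b, Ccnd3 and Ccnd2, with 46.8, 45.7 and 45.5 RPKM, could not be put in order, and neither could Cdk6 and Cdkn2c with 7.37 and 6.41. In CDDO+TPA, Cdkn1a and Ccnd1 did not differ beyond counting error, with 104.5 and 99.9 RPKM. Nor did Ccnd3 and Cdkn1b, with 35.9 and 33.1 RPKM.

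Cyclins of the E and A types act with CDK2 after the D-type cyclins. Of 7 other cyclin, kinase and inhibitor genes, not all of them specific to G1, 6 were measured. In TPA against control 1 was higher and 2 lower, beside 9.57% and 5.91% of all genes. In CDDO+TPA against TPA 3 were higher and none lower, beside 7.87% and 7.78%, with a median log2 difference of 1.12. The 3 were Ccne1, Ccna2 and Cdkn3, and the 2 lower in TPA were Ccna2 and Cdkn3. Ccne1, for cyclin E1, had 4.87, 7.53 and 25.7 CPM in control, TPA and CDDO+TPA, and Ccne2, for cyclin E2, had 3.37, 15.7 and 22.2. The cyclin E genes were thus both highest in CDDO+TPA, while Ccne2 alone of them was past the rule in TPA against control, 4.66-fold higher (3.05 to 7.35). Ccna2, for cyclin A2, had 55.5, 24.4 and 113 CPM, and Cdkn3, a CDK-binding phosphatase gene, had 14.4, 4.14 and 25.6. Both were lowest in TPA. Cdk2, their kinase partner, had 65.0, 63.7 and 69.6 CPM. Cdkn1c, the remaining CIP/KIP gene, had 0, 3 and 3 reads.

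Of 7 genes that activate CDKs, in TPA against control 1 was lower and none higher, beside 5.91% and 9.57% of all genes. In CDDO+TPA against TPA 1 was higher and none lower, beside 7.87% and 7.78%. In both comparisons the gene was Cdc25c, a CDK phosphatase gene of mitotic entry, with 9.98, 4.65 and 21.2 CPM. Of 15 pocket protein, E2F and DP genes 14 were measured. In TPA against control none was past the rule, beside 15.5% of all genes. In CDDO+TPA against TPA 3 were higher and none lower, with a median of 0.40. E2f2, an activating E2F gene, had 2.995, 5.65 and 12.7 CPM. E2f8, a repressing E2F gene, had 18.7, 16.4 and 62.2, and Rbl1, for the pocket protein p107, had 32.6, 36.0 and 107. Rb1 itself had 148, 155 and 145 CPM.

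Of 17 genes for turnover of cyclins and inhibitors, 1 was past the rule in each comparison with the TPA library, beside 15.5% and 15.6% of all genes. The gene was Usp2, a deubiquitinase gene for cyclin D1, with 3.49, 7.28 and 3.42 CPM, highest in TPA. Skp2, whose product targets p27 for degradation, had 43.6, 44.8 and 26.7 CPM, 1.68-fold lower in CDDO+TPA than in TPA (1.41 to 2.00). Skp2 and Myc were singled out after their values were seen. Myc, whose product binds E boxes, had 274, 236 and 184 CPM, lowest in CDDO+TPA.

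Of 17 listed regulators of cyclin D and inhibitor genes 15 were measured. In TPA against control none was past the rule, beside 15.5% of all genes. In CDDO+TPA against TPA 1 was higher and 1 lower, beside 7.87% and 7.78% of all genes, with a median of -0.06. Foxm1, a factor for G2 and mitosis genes, had 126, 104.8 and 226 CPM. Foxo3, a forkhead factor known to activate Cdkn1b, had 96.0, 108 and 53.7 CPM, a log2 difference of -1.01 between CDDO+TPA and TPA. Of 12 p53 targets beside Cdkn1a, 1 was lower in each of these comparisons and none higher. Of all genes 5.91% and 7.78% were lower in them. Btg2, an antiproliferative gene, was 2.20-fold lower in TPA than in control (1.95 to 2.49), and Bbc3, a cell death gene, had 110, 100.7 and 35.5 CPM.

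Of 16 S-phase genes driven by E2F, 9 were higher and none lower in CDDO+TPA against TPA, with a median log2 difference of 1.16. Of all genes 7.87% were higher and 7.78% lower. In TPA against control 1 was higher and none lower, beside 9.57% and 5.91% of all genes, with a median of -0.26. Cdc6, a replication licensing gene, had 10.7, 7.16 and 38.0 CPM, and Rrm2, a ribonucleotide reductase gene, had 26.8, 17.6 and 88.7. Tk1, for thymidine kinase, had 13.2, 15.8 and 46.2 CPM, and Cdc45, for a part of the replicative helicase, had 19.7, 13.1 and 45.1.

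Of 10 mitotic genes 9 were higher in CDDO+TPA against TPA, beside 7.87% of all genes, with a median of 1.77. In TPA against control 3 were lower, beside 5.91% of all genes, with a median of -0.62. Top2a, a topoisomerase of dividing cells, had 171, 69.4 and 381 CPM. Bub1, a spindle checkpoint kinase gene, had 27.6, 12.6 and 91.6. The share of dividing cells in each culture was not measured, and its part in the levels of the G1 genes was not tested. Beside these medians the 8 G1 genes had medians of 0.00 and -0.16, and Cdkn2c alone of them was lowest in TPA and highest in CDDO+TPA, the order of Cdc6, Rrm2, Top2a and Bub1.

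**Figure D5:**
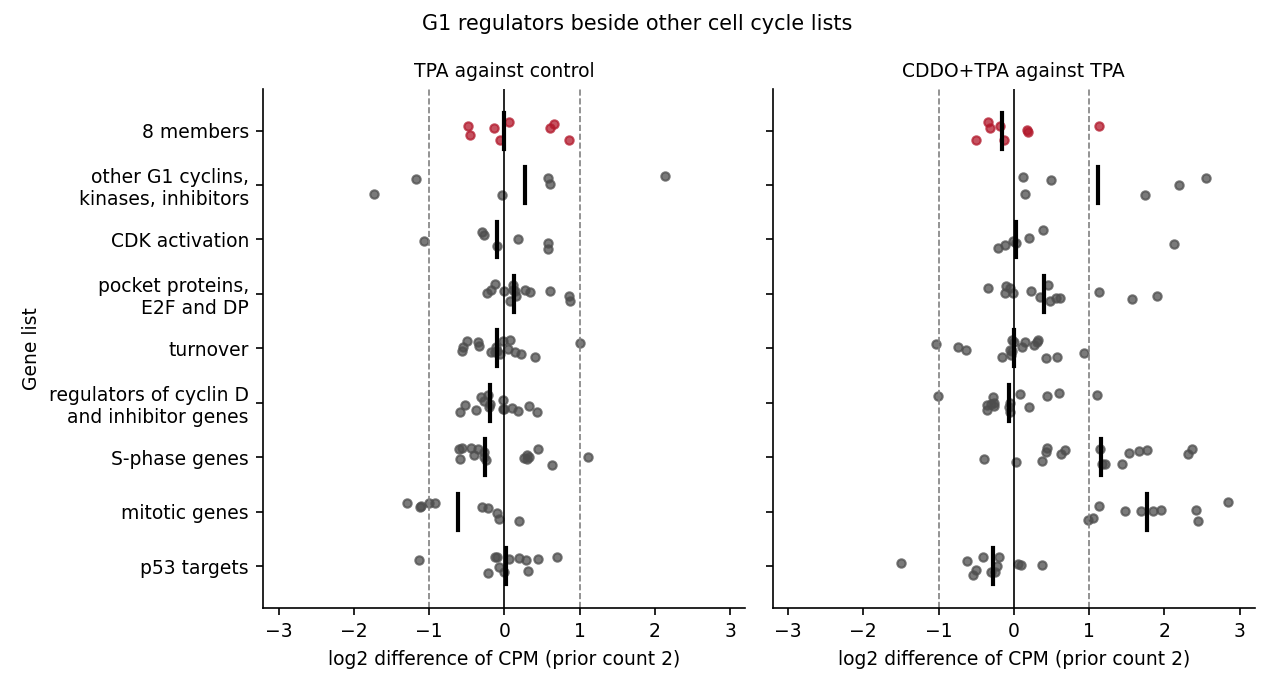
Log2 difference of CPM (prior count 2) of each measured gene, as points, for the 8 G1 genes and 8 other lists, left for TPA against control and right for CDDO+TPA against TPA, 1 library per group; thick bars are medians and dashed lines the size rule. In CDDO+TPA against TPA the mitotic genes have a median of 1.77 and the 8 G1 genes one of -0.16.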

How the data were processed

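RNA of 3 JB6 P+ cultures was sequenced, 1 library per group. The deposited values are raw counts of reads for each gene symbol. They come from featureCounts 1.5.3, run on primary alignments with UCSC's mm10 gene models, per the file headers. The header lists 7 alignment files, and the table holds 3 sample columns, all used. The submitters' processing notes also name HISAT2, Picard and DESeq. Strand, duplicate and multi-mapping settings are not given in the sources used here. Exon lengths come from the same deposited table.

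From the counts, CPM was computed with TMM factors (edgeR 4.0.16, R 4.3.3), and log2 CPM with a prior count of 2. Ratios of CPM have exact conditional binomial 95% intervals (scipy 1.17.1), and levels have exact Poisson intervals. The functions were tested on simulated data. No p-value was computed, since each group has 1 library. The 10 genes and the other lists were chosen with earlier results of these data known. All 10 are named. For other lists, up to 4 genes with the largest differences past the size rule are named, or the one with most reads, and for genes past it the 3 of most like pattern. Cdk2, Cdkn1c, Cdkn2d and Rb1 were added as partners or relatives after their values were seen, like the other genes marked so. The motifs, the promoters shown and the ratios within a library were also chosen with values in view. Alternatives were DESeq2 1.42.0 size factors, total reads, upper-quartile factors, prior counts of 0.5 and 5, a 1.5-fold rule, other filters on low counts, and shares without length.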

Additional observations from a re-analysis of the deposited data

How the results depend on the processing

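Over the 8 genes and 3 comparisons, 120 log2 differences under DESeq2 size factors, total reads, upper-quartile factors and prior counts of 0.5 and 5 were computed. All 120 stayed within the counting interval of the reported value, and none changed sign. Whether a counting interval excluded 1 did change for 2 of the 8 genes in TPA against control under total reads and upper-quartile factors, where Cdkn1a came to exclude it and Cdkn1b to include it. No such call changed in the other comparisons, or with DESeq2 size factors. Cdkn2c remained past the size rule in CDDO+TPA against TPA in each of these settings and was the only one of the 8 that was. With the rule at 1.5-fold, 3 of the 8 were past it for TPA against control, as were 3 for CDDO+TPA against control, where none was at 2-fold. Over all genes the 1.5-fold rule gave 3833 genes for TPA against control in place of 2028, 3684 for CDDO+TPA against TPA in place of 2050, and 2897 in CDDO+TPA against control in place of 1493. When only the 9890 genes averaging 10 CPM or more were kept, the counts at 2-fold were 857, 749 and 672. That filter moved the share of called genes that were higher from 61.8% to 44.5% for TPA against control, and it moved that share from 50.3% to 69.7% for CDDO+TPA against TPA. Without division by length, Ccnd1, Ccnd2 and Ccnd3 held 34.5%, 56.5% and 8.92% of D-type cyclin reads in control, 47.9%, 37.4% and 14.7% in TPA, and 49.9%, 39.4% and 10.7% in CDDO+TPA. The share of Cdk4 was then 94.7%, 91.5% and 91.8%. In both forms Ccnd2 led in control and Ccnd1 in the treated libraries. No paired analysis was possible because each group has 1 library, and no library could be left out for the same reason. Depth limits Cdk6 and Cdkn2c, with 92 to 252 reads, more than the other 6 genes, with at least 455.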
